A study of Microtus ochrogaster with 40 samples.

Results

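The comparison concerns 22 of the 40 single-nucleus RNA libraries of prairie vole nucleus accumbens in the study, those of animals housed with an opposite-sex partner. Each library number is the leading number of the sample description, and an odd number with the next even number was taken as a couple, which gave 11 couples of 1 female and 1 male. Mate couples 1 to 11 are numbered in the order of their libraries, so couples 1 and 2 are libraries 1 to 4. The question was whether the 2 animals of a couple had more similar expression than a female and a male of different couples.

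The groups used were female mate (n = 11) and male mate (n = 11), both from animals paired with an unfamiliar partner of the opposite sex for 16 days before death. Female peer (n = 8) and male peer (n = 10) animals were paired for the same 16 days with an unfamiliar animal of their own sex. They were used for a comparison of couple similarity, for a test of single genes and in the joint clustering of nuclei. The tissue was frozen, the accumbens of each animal was dissected separately and its nuclei were isolated separately, so that a library stands for 1 animal. The labels give no strain, age or genotype and do not say which animals shared a cage, and no paper was used here. Whether a numbered couple was a pair of cage partners is therefore unknown. The labels do not say what the order of library numbers stands for. A shared cage and anything else that goes with neighbouring numbers cannot be told apart.

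The prairie vole is a rodent in which a male and a female form a lasting bond after mating and living together. The nucleus accumbens, the ventral part of the striatum, receives dopamine from the midbrain, and dopamine, oxytocin and opioid signalling in it take part in the forming of that bond. Most of its neurons are inhibitory medium spiny neurons, which carry either the dopamine D1 receptor, expressed with dynorphin and tachykinin peptides, or the D2 receptor, expressed with enkephalin.

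In the 22 mate libraries 103810 nuclei were kept of 116313 barcodes, with 2311 to 7661 nuclei and 3993594 to 13639953 UMIs (counted RNA molecules) per library. The library of male mate 2 stood apart, with a median of 656 UMIs per nucleus against 1435.5 to 2211 in the other libraries. In it 43.6% of nuclei were glutamate neuron-like, 0.218% were astrocyte-like and 39% belonged to unnamed clusters, against 17.8% unnamed over all mate nuclei. The counts of calls and the excess over all nuclei are given with and without its couple, couple 2. Couples shared 0.883% of the cell barcodes of their smaller library on average, and other female-male pairs 0.88%.

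The 11 classes of nuclei that could be tested carried their defining markers. In CPM, the counts of a gene scaled to a common library total, Drd1a, the D1 receptor, was at 945 in D1 medium spiny neuron-like nuclei, where the eccentric medium spiny neuron-like class came next at 808. Drd2, the D2 receptor, was at 358 CPM in its own spiny neuron class against at most 36.6 in another class. Otof, a marker of eccentric medium spiny neurons, reached 228 CPM in its class against at most 19.8 elsewhere. The inhibitory somatostatin interneuron-like class had 5920 CPM of Sst against at most 126. However, the larger of its clusters was also led by Pvalb, the marker of another interneuron type. That cluster held 6251 nuclei of all 40 libraries, against 1332 in the other. Its mean log2 fold was 2 for the somatostatin and 1.81 for the parvalbumin marker list, so the class is a mixed one. The glial classes were as clear, with 1160 CPM of the water channel gene Aqp4 in astrocyte-like, 4900 CPM of Pdgfra in oligodendrocyte precursor-like and 4010 CPM of Csf1r in microglia-like nuclei.

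Over all nuclei, females and males of the same couple were more similar than females and males of different couples. Similarity is the Pearson correlation over 13159 genes between the log2 CPM of a female and of a male after the mean of each sex was removed, so a value of 0 means no shared deviation. It averaged 0.0924 ± 0.114 (SD, n = 11) in couples, with a lowest value of -0.0999, a median of 0.102 and a highest of 0.241. In the 110 other female-male pairs it averaged -0.00987 ± 0.146 (SD) and ran from -0.363 to 0.404. The difference, called the excess here, was 0.102 (p = 0.0407, two-sided permutation test over 100000 assignments of males to females), and 9 of 11 couples lay above the mean of the other pairs. The ranges overlapped fully, and pairs of different couples held both the lowest and the highest value.

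The couples differed among themselves. Couples 6 and 1 were the most similar, at 0.241 and 0.237, followed by couple 7 at 0.196. Couples 9 and 11 lay at 0.141 each, couple 2 at 0.102 and couple 3 at 0.0859. Couples 4 and 10 were close to 0, at 0.0143 and 0.00623, and couples 5 and 8 were below it, at -0.0490 and -0.0999. The male of the couple was the most similar of the 11 males for 1 female, and the female of the couple the most similar of the 11 females for 2 males. Only in couple 7 did each animal rank first for the other in all nuclei. The partner stood within the upper 3 for 7 of 11 females and 7 of 11 males.

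**Figure D1:**
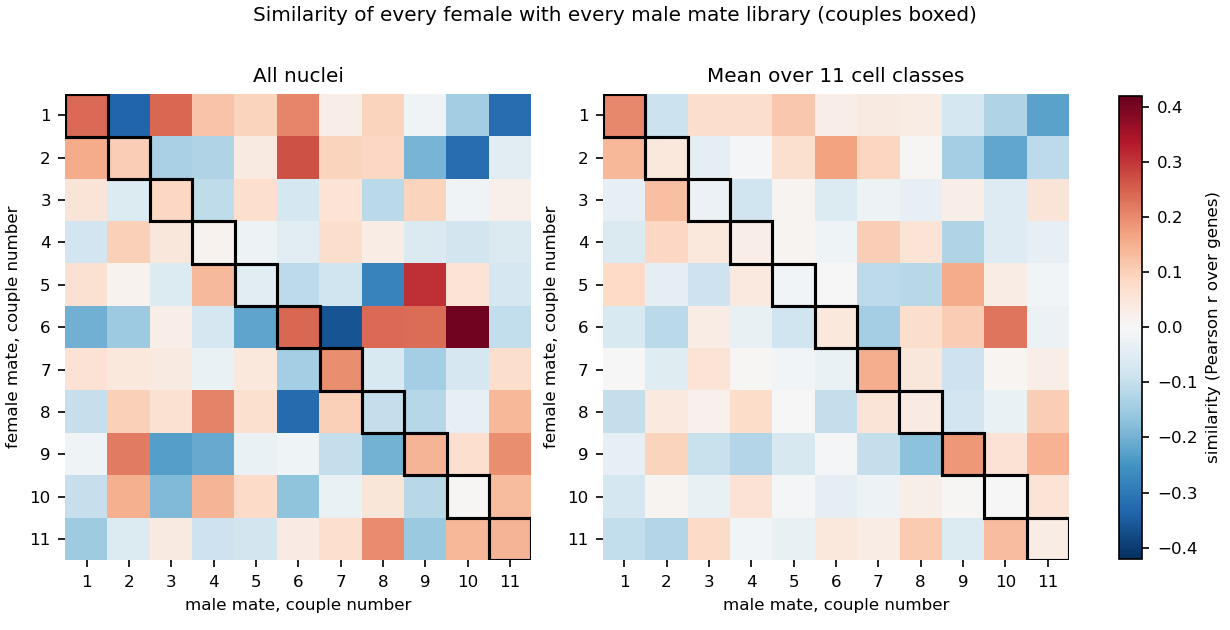
Heat maps of the similarity (Pearson r over genes, colour scale) of each female mate library (rows) with each male mate library (columns), over all nuclei and as the mean over 11 cell classes; the boxed diagonal holds the 11 couples. Couples 1, 6 and 7 are the warmest boxes for all nuclei, couples 1, 7 and 9 for the mean over classes, and single unboxed cells are as warm.

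This excess was small against the spread of pairs, and 1 couple could end the call: leaving out couples in turn gave 0.0807 to 0.128, and the permutation p rose above 0.05 without couple 1, 2, 3, 6, 7, 9 or 11, to at most 0.114. Without couple 2 the excess was 0.0997 (permutation p = 0.0562). It was 0.0549 (permutation p = 0.126) with no filter on low counts and 0.0507 (permutation p = 0.275) on the 2000 most variable genes. After regression on the shares of the classes of nuclei it was 0.0581 (permutation p = 0.368) with a common slope and 0.0349 (permutation p = 0.455) with slopes fitted within each sex. After regression on the mitochondrial share of the libraries it was 0.0654 (permutation p = 0.235) and 0.0922 (permutation p = 0.0729).

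Within cell classes the excess was above 0 in all 11 classes and was called (Benjamini-Hochberg adjusted permutation p under 0.05) in 4. The lowest p was that of astrocyte-like nuclei, the star-shaped glia that take up glutamate and potassium, with an excess of 0.0941 over 10 couples (adjusted permutation p = 0.00792). Couple similarity there averaged 0.0849 ± 0.0877 (SD, n = 10) against -0.00927 ± 0.0729 (SD) in 90 other pairs, and 9 of 10 couples lay above the other pairs' mean. For 5 of 10 males the female of the couple ranked first of 10. Couple 2 had too few astrocyte-like nuclei in its male to enter.

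Somatostatin interneuron-like nuclei had the highest excess in size, 0.109 (adjusted permutation p = 0.0274), with couples at 0.0995 ± 0.0923 (SD, n = 11). In them the partner stood within the upper 3 for 9 of 11 females and 7 of 11 males. Eccentric medium spiny neuron-like nuclei, a group of spiny neurons set apart from the D1 and D2 types, had an excess of 0.0884 (adjusted permutation p = 0.0274), and oligodendrocyte precursor-like nuclei, the dividing glia that give rise to myelinating cells, 0.0679 (adjusted permutation p = 0.036).

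The main spiny neuron classes did not pass. The excess was 0.0794 in D2 (adjusted permutation p = 0.0739) and 0.0669 in D1 medium spiny neuron-like nuclei (adjusted permutation p = 0.132), values close to that of the called precursor class. It was 0.0783 in glutamate neuron-like (adjusted permutation p = 0.132) and 0.0614 in other GABA neuron-like nuclei (adjusted permutation p = 0.0739). Oligodendrocyte-like (0.0351), microglia-like (0.0379) and vascular nuclei (0.0167) had the lowest values, with adjusted permutation p of 0.461 to 0.736. Differences in excess between classes were not tested. In microglia-like nuclei single couples ran from -0.513 to 0.481, the widest spread of the classes.

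**Figure D2:**
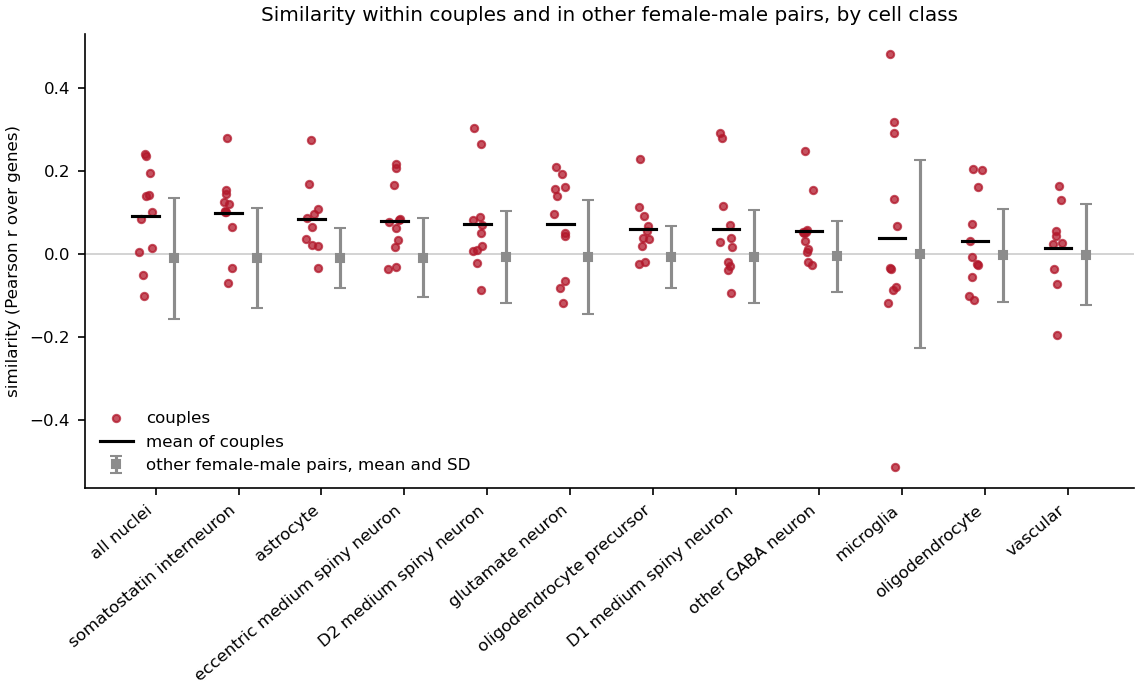
Similarity (Pearson r over genes, vertical axis) of each couple as a point, with the mean of couples as a bar and the other female-male pairs as mean and SD, for all nuclei and 11 cell classes. Couple means lie above the other pairs' means in every class, and single couples overlap the SD of the other pairs in every class.

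Averaged over the classes an animal entered, couples 1 (0.202), 9 (0.183) and 7 (0.152) stood out, and in each of these 3 couples both animals ranked first for each other. The remaining 8 couples lay between -0.0251 and 0.0457. The excess of this mean was 0.0679 (p = 0.0195, permutation test). None of the 11 classes was called without couple 1 or without couple 7, 2 were called without couple 9, and 4 without couple 2. Couple 2 had not entered the astrocyte-like and oligodendrocyte precursor-like classes, so their excess could not change without it. In the 4 called classes the excess stayed above 0. Without couple 7 it was 0.0831 in astrocyte-like, 0.0892 in somatostatin interneuron-like, 0.0778 in eccentric medium spiny neuron-like and 0.0669 in oligodendrocyte precursor-like nuclei (adjusted permutation p = 0.0642 each). Without couple 1 it was 0.0644, 0.103, 0.071 and 0.045 in the same order (adjusted permutation p 0.105 to 0.156). None of the 11 was called either after regression on class shares (lowest adjusted permutation p = 0.895, or 0.38 with slopes within each sex) or on the mitochondrial share of the libraries (0.889, or 0.0928 with slopes within each sex). In the 4 called classes the excess after regression on class shares was 0.0305 in astrocyte-like, 0.0645 in somatostatin interneuron-like, 0.0464 in eccentric medium spiny neuron-like and -0.0130 in oligodendrocyte precursor-like nuclei, and 0.0578, 0.0539, 0.0695 and 0.0229 with slopes within each sex. On the mitochondrial share it was 0.0506, 0.048, 0.0473 and 0.0214, and 0.0678, 0.0721, 0.0609 and 0.0427 with slopes within each sex. A regression takes out whatever part of a shared deviation follows the covariate, from any source.

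Each class also had counts of genes on the marker lists of other classes. Some were not low there, such as Drd1a at 808 CPM in eccentric medium spiny neuron-like and Gad1 at 1450 CPM in somatostatin interneuron-like nuclei. Such counts are therefore no measure of RNA from other classes alone. The summed level of these markers was compared too. In eccentric medium spiny neuron-like nuclei it was 8370 to 13900 CPM in females and 10800 to 14700 CPM in males, and the log2 difference between a female and a male was 0.118 within couples against 0.193 in other pairs (permutation p = 0.0188, adjusted over 11 classes 0.207). In oligodendrocyte precursor-like nuclei it was 0.103 against 0.165 (permutation p = 0.0485, adjusted 0.267), in astrocyte-like nuclei 0.103 against 0.125 (permutation p = 0.258) and in somatostatin interneuron-like nuclei 0.159 against 0.187 (permutation p = 0.498). Single markers of other classes were tested for couple effects as any gene. At an unadjusted p under 0.05 were 19 of 46 in somatostatin interneuron-like, 15 of 42 in eccentric medium spiny neuron-like and 10 of 30 in astrocyte-like nuclei, with 1 called in each, where all genes gave 11.7%, 14% and 11.4%. In oligodendrocyte precursor-like nuclei it was 7 of 17 with none called by edgeR, where all genes gave 9.81%. The part of such markers in the class similarity was not tested.

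The makeup of the dissections was compared directly. The distance between the class shares of a female and a male, on a centred log ratio scale, was 1.98 ± 1.33 (SD, n = 11) in couples and 2.11 ± 1.32 (SD) in other pairs, a difference of -0.131 (p = 0.252, permutation test). With a couple left out it ran from -0.217 to -0.0308 (permutation p 0.0645 to 0.759), the latter without couple 6, and with exchange within blocks of 10 library numbers it was -0.378 (permutation p = 0.378). It was largest in couple 2, at 5.79, and smallest in couple 7, at 1.09. Of 13 classes and the unnamed nuclei, the share of eccentric medium spiny neuron-like nuclei had the lowest p, with a mean difference within couples of 2.08 percentage points against 3.47 in other pairs (permutation p = 0.0182, adjusted 0.255). Somatostatin interneuron-like shares differed by 0.684 points within couples and 1.1 in other pairs (permutation p = 0.0468, adjusted 0.328). Neither passed after adjustment. In these tissue samples a lower count of a type's RNA in the sum over all nuclei can come from fewer nuclei or from less RNA per nucleus, and the sums do not tell them apart.

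Depth and quality measures of the libraries were also set side by side. The mean mitochondrial share of a library's nuclei, 0.339% to 0.716%, differed by 0.0823 points within couples and 0.129 in other pairs (permutation p = 0.0782, adjusted over 6 measures 0.235). Total UMIs differed by 0.31 within couples and 0.47 in other pairs on the log2 scale (adjusted permutation p = 0.235). Median UMIs per nucleus, the number of nuclei, the unnamed share and the doublet score gave adjusted permutation p of 0.272 to 0.879. None of the 6 measures was called.

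The order of library numbers offered pairs that were neighbours without being a couple. There were 4 of them, an even number followed by the next odd one, with similarities of 0.157, 0.0483, -0.221 and 0.100 over all nuclei and a mean of 0.0210, against 0.0924 in couples. Over the 110 non-couple pairs the similarity had a Pearson r of -0.0504 and a Spearman rho of 0.0241 with the difference in library number. In the classes r ran from -0.27 (oligodendrocyte precursor-like) to 0.0284 (vascular). Neighbours averaged 0.0128 to 0.0778 in the 4 called classes, below the couples of the same class. The highest was in somatostatin interneuron-like nuclei (couples 0.0995). They were above couples in microglia-like (0.129 against 0.0389) and vascular nuclei (0.0872 against 0.0158). These pairs share libraries, so the values are a description. When males were exchanged only within blocks of 10 library numbers, the excess over all nuclei was 0.140 (p = 0.0347, exact permutation test), and no class was called (lowest adjusted permutation p = 0.0764). The excess within blocks was above the main value in each of the 4 called classes, at 0.126 in astrocyte-like, 0.116 in somatostatin interneuron-like, 0.0985 in eccentric medium spiny neuron-like and 0.073 in oligodendrocyte precursor-like nuclei.

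**Figure D3:**
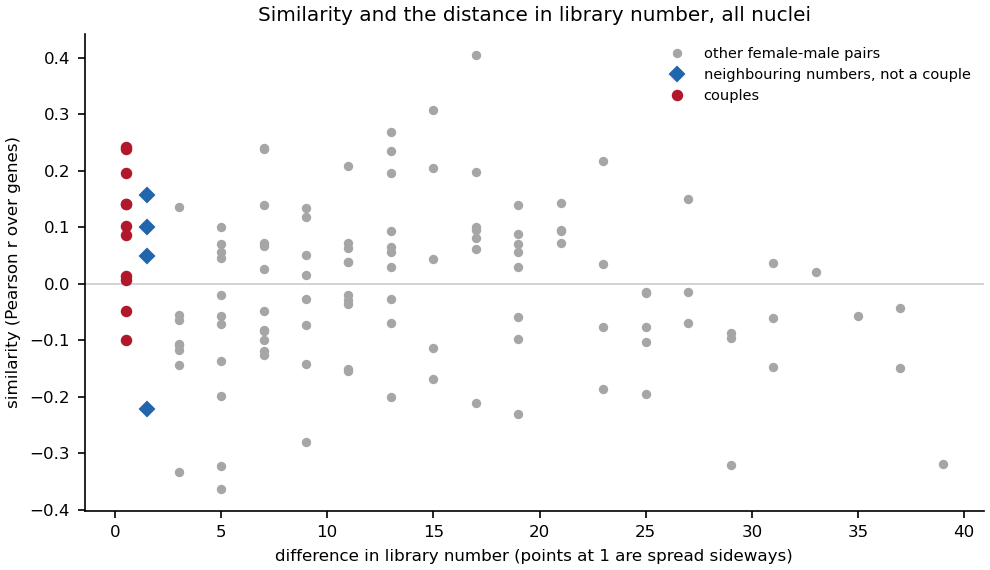
Similarity over all nuclei (Pearson r over genes, vertical axis) against the difference in library number of each female-male pair (horizontal axis); couples, neighbouring pairs that are not couples and all other pairs are marked apart. The 4 neighbouring pairs span -0.221 to 0.157 and the 11 couples -0.0999 to 0.241, and r over the 110 non-couple pairs is -0.0504.

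Peer animals were numbered in the same way and gave 9 couples of the same sex. The excess of a couple over the other pairs of its animals averaged 0.0794 ± 0.12 (SD, n = 11) in mates and 0.0727 ± 0.17 (SD, n = 9) in peers. The filter on low counts and the scaling ran over all 40 libraries here, so the mate value differs from the 0.102 given above. The difference was 0.00666 (p = 0.92, permutation test of the couple type over 20 couples), well under the spread of either set. The highest excess of all was that of peer couple 6, the females of libraries 11 and 12, at 0.42. Without it the other 8 peer couples averaged 0.0293 ± 0.116 (SD) among these values. When its libraries were left out before filtering and scaling, mates minus peers was 0.0695 (p = 0.235, permutation test). Those libraries had the highest mitochondrial shares of the peers, 1.1% and 0.944%, and 44.5% and 31.7% of their nuclei were in unnamed clusters. Library 11 had the lowest median of the peers, 933.5 UMIs per nucleus. Their part in the value was not tested.

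Single genes were tested for whether their level followed the couple, with edgeR's quasi-likelihood F test of the couple terms in a model with sex. A gene was called at a Benjamini-Hochberg adjusted p under 0.05. Over all nuclei 4 of 13159 genes were called (0.0304%), while 2083 (15.8%) had an unadjusted p under 0.05. The correlation of the female and the male level over the 11 couples had a median of 0.188 over genes and was above 0 for 70% of them. In the same test on the 9 peer couples, 1 of 13324 genes was called (0.00751%) and again 15.8% had an unadjusted p under 0.05.

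The gene with the lowest p was P4hb, which codes for a protein disulfide isomerase that helps secreted proteins fold. Its level in females ran from 93.6 CPM through a median of 148 to 197, and in males from 100 through 148 to 183. Both animals of couple 1 were the lowest of their sex (93.6 and 100), both of couple 2 came next (105 and 114), and both of couple 8 were high (197 and 172). The SD between couple means was 0.30 on the log2 scale and the SD within couples 0.08 (edgeR adjusted p = 0.043).

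Degs1, the desaturase that makes the last step to ceramide, followed the same order of couples at its low end. Females had 57.1, 93.1 and 127 CPM as lowest, median and highest, and males 54.7, 88.5 and 122. Couple 1 (57.1 and 54.7) and couple 2 (65.0 and 57.5) were low in both sexes, and couples 10 and 11 high in both. The SD between couples was 0.35 and within couples 0.11 (log2; edgeR adjusted p = 0.043). Among classes Degs1 was called in D1 medium spiny neuron-like nuclei (29.9 to 95.0 CPM over both sexes, edgeR adjusted p = 0.0355).

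Both other called genes have no symbol and were highest in couple 9. ENSMOCG00000005617 had 13.1, 18.4 and 48.6 CPM in females and 10.1, 16.9 and 111 in males. The highest female and the highest male were the 2 animals of couple 9, and the other 10 couples stayed at or below 28.9. The SD between couples was 0.71 and within couples 0.37 (log2; edgeR adjusted p = 0.043). ENSMOCG00000019332 had 24.5, 32.1 and 63.4 CPM in females and 22.0, 33.1 and 69.6 in males, again with couple 9 highest in both sexes (SD between couples 0.44, within 0.16, log2; edgeR adjusted p = 0.043). The identifiers carry no annotation in the files beyond their number.

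These 4 calls did not hold when couples were left out. The count over all nuclei fell to 0 when any couple but couple 8 was removed, with 1667 to 2255 genes still at an unadjusted p under 0.05, and was 12 without couple 8. It was also 0 after adding blocks of 10 library numbers, class shares (2077 at an unadjusted p under 0.05) or the mitochondrial share (1524) to the model. A trend of single genes with library number was not tested.

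In the cell classes 147 of 71354 gene-class tests were called (0.206%), and 7878 (11%) had an unadjusted p under 0.05. The eccentric medium spiny neuron-like class held 40 of them (0.454% of its genes), astrocyte-like nuclei 28 (0.391%), D2 medium spiny neuron-like nuclei 25 (0.25%), somatostatin interneuron-like nuclei 14 (0.177%), other GABA neuron-like nuclei 13 (0.227%) and D1 medium spiny neuron-like nuclei 10 (0.0999%). Oligodendrocyte precursor-like nuclei had 9 (0.262%), glutamate neuron-like nuclei 7 (0.0669%) and oligodendrocyte-like nuclei 1 (0.0212%). None was called by edgeR in microglia-like and vascular nuclei, with 116 and 52 genes at an unadjusted p under 0.05, where DESeq2's likelihood ratio test called 22 and 0. The share of genes at an unadjusted p under 0.05 was 14% in eccentric, 12.3% in D2 and 10.7% in D1 medium spiny neuron-like nuclei, 11.8% in glutamate neuron-like, 11.7% in somatostatin interneuron-like and 10.2% in other GABA neuron-like nuclei. It was 11.4% in astrocyte-like, 9.81% in oligodendrocyte precursor-like, 5.88% in oligodendrocyte-like, 6.45% in microglia-like and 3.94% in vascular nuclei. The classes differ in the number of genes tested and in depth, so the counts are not a ranking. In 73 of the 147 (49.7%) the couple farthest from the mean of couples was couple 1, in 22 couple 2, in 16 couple 9 and in 11 couple 6. Without couple 1 the count of calls was 3, without couple 2 it was 58, of which 54 were among the 147, and without couple 8 it was 77. Couple 2 does not enter the astrocyte-like, oligodendrocyte precursor-like and vascular classes. Without it their genes change only through the adjustment over all gene-class tests. The genes with the lowest p in each class, up to 3, made 25 called results. Of these 25, 3 were called without couple 1, 21 without couple 2, 5 with class shares in the model, 7 with the mitochondrial share and 5 beyond blocks of library numbers. Without couple 2 Degs1 in D1 medium spiny neuron-like, Itm2b and Hspa5 in glutamate neuron-like and Arrdc2 in oligodendrocyte-like nuclei were not called (edgeR adjusted p = 0.0608, 0.064, 0.0616 and 0.0666).

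Astrocyte-like nuclei were led by Dok5, an adaptor protein of receptor tyrosine kinase signalling. Its level was 77.6, 206 and 330 CPM (lowest, median, highest) in females and 61.7, 220 and 280 in males. Couples 1 and 10 were low in both sexes, and couple 8 was the highest in both. The SD between couples was 0.67 and within couples 0.25 (log2; edgeR adjusted p = 0.0197), and the call was kept with class shares (0.0461) or the mitochondrial share (0.0496) in the model but not without couple 1 (0.138). Saraf, which damps the calcium entry set off when stores of the endoplasmic reticulum empty, had 297, 492 and 675 CPM in females and 215, 515 and 679 in males. Couples 1 and 5 were low in both sexes and couple 8 high in both (SD between couples 0.44, within 0.14, log2; edgeR adjusted p = 0.028). Paqr7, a membrane receptor for progestins, was highest in both animals of couple 7 (341 and 348 CPM) against medians of 169 in females and 140 in males (edgeR adjusted p = 0.028).

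Eccentric medium spiny neuron-like nuclei were led by Srd5a3, an enzyme that makes dolichol for the glycosylation of proteins, at 57.2, 122 and 237 CPM in females and 58.2, 109 and 168 in males. Couples 1 and 2 were low in both sexes (76.7 and 58.2, 57.2 and 70.8) and couples 4 and 8 high (160 and 168, 237 and 160). The SD between couples was 0.52 and within couples 0.19 (log2; edgeR adjusted p = 0.0197). Grina, a membrane protein of the TMBIM family, ran from 434 to 1100 CPM in females and from 463 to 1020 in males with couple 1 lowest in both (edgeR adjusted p = 0.0197). Tbc1d24, which acts in vesicle traffic at synapses, ran from 737 to 2070 CPM in females and from 746 to 1920 in males (edgeR adjusted p = 0.0238), with couples 1, 2 and 5 at the low end.

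D2 medium spiny neuron-like nuclei were led by Dad1, a subunit of the enzyme that attaches sugar chains to new proteins. Females had 150, 251 and 366 CPM and males 144, 253 and 354. The 4 animals of couples 1 and 2 were between 144 and 152 CPM, below the 18 others. The SD between couples was 0.40 and within couples 0.11 (log2; edgeR adjusted p = 0.0197). Tmem35a, a chaperone of nicotinic acetylcholine receptors, was lowest in couple 2 (114 and 106 CPM) against medians of 194 and 189 (edgeR adjusted p = 0.0244). Bbs5, a part of the complex that carries proteins to cilia, went the other way: couple 1 had 97.0 and 85.1 CPM, against medians of 22.9 in females and 24.8 in males (edgeR adjusted p = 0.028). In D1 medium spiny neuron-like nuclei Calb1, the calcium buffer calbindin, was highest in couple 9 (620 and 642 CPM) and lowest in couple 7 (273 and 198 CPM), with an edgeR adjusted p of 0.0288.

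**Figure D4:**
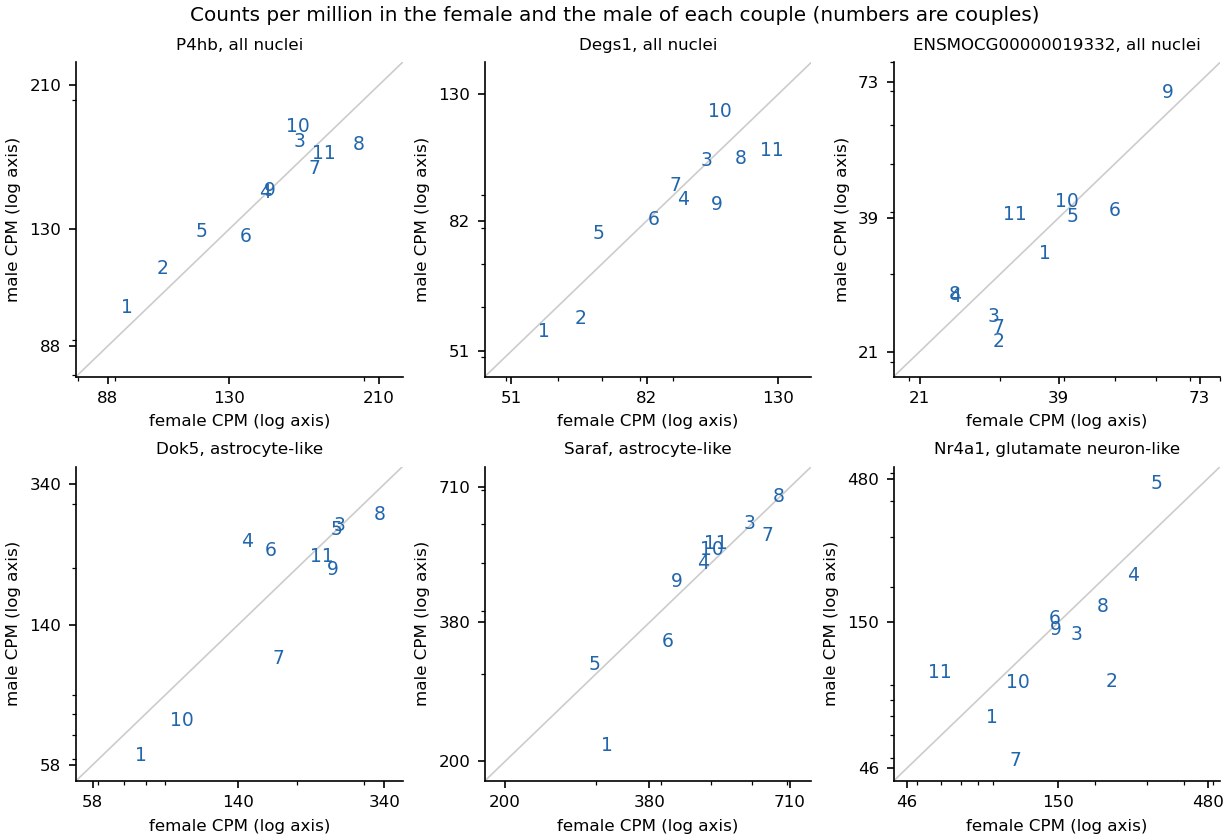
CPM in the female (horizontal, log axis) and the male (vertical, log axis) of each couple, written as the couple's number, for 6 genes called in the couple test; the line marks equal levels. Couple 1 sits at the low end for P4hb, Degs1, Dok5 and Saraf, couple 9 at the high end for ENSMOCG00000019332 and couple 5 at the high end for Nr4a1.

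Glutamate neuron-like nuclei had 3 named genes. Itm2b, a membrane protein whose processing releases a short peptide, ran from 419 CPM in the female and 496 in the male of couple 1 to 1220 and 1120 in couple 9 (edgeR adjusted p = 0.028). Hspa5, the main chaperone of the endoplasmic reticulum, ran from 322 to 762 CPM in females and from 309 to 752 in males, with couples 1, 2 and 4 low and couples 9 and 11 high in both sexes (edgeR adjusted p = 0.0288). Nr4a1, an activity-induced nuclear receptor, was highest in couple 5 (321 and 460 CPM) against medians of 147 and 136 (SD between couples 0.74, within 0.40, log2; edgeR adjusted p = 0.0288).

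In other GABA neuron-like nuclei Saraf (edgeR adjusted p = 0.0197) and Tbc1d24 (edgeR adjusted p = 0.0259) were called again, and couple 1 was the lowest of both sexes for both genes. Somatostatin interneuron-like nuclei were led by ENSMOCG00000010003, at 0 to 105 CPM in females and 4.53 to 362 in males, with both highest values in couple 7 (edgeR adjusted p = 0.0197). The SD within couples, 1.08, was near the SD between couples, 1.27 (log2), so that this gene varied widely inside couples as well. Sntg2, a syntrophin of the dystrophin complex, had 97.3 and 124 CPM in couple 7 and 12.6 and 20.8 in couple 11 (edgeR adjusted p = 0.028).

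Among glia, oligodendrocyte precursor-like nuclei had Hes5, a target of Notch signalling, highest in couple 10 (515 and 504 CPM) and at 92.7 to 514 CPM elsewhere (edgeR adjusted p = 0.028). Their lowest p belonged to ND4L, a subunit gene of mitochondrial complex I, at 154, 272 and 1520 CPM in females and 122, 295 and 910 in males (edgeR adjusted p = 0.00914). The females of couples 9 and 11 were far above their males (1160 against 380, 1520 against 523), and the correlation over 10 couples was 0.454. In oligodendrocyte-like nuclei the single called gene was Arrdc2, of the arrestin family, at 171 and 404 CPM in couple 7 and 59.1 and 22.1 in couple 9 (edgeR adjusted p = 0.0479). In microglia-like nuclei Pdia5, another disulfide isomerase, was at 1590 and 1200 CPM in couple 7 and 194 and 164 in couple 2, and missed the threshold (edgeR adjusted p = 0.0502). In vascular nuclei Hspb1, a small heat shock protein, had the lowest p and was not called (edgeR adjusted p = 0.104).

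Lists of genes were read against the share of all genes with an unadjusted p under 0.05, which was 15.8% over all nuclei. No member of the 12 lists was called over all nuclei by edgeR. DESeq2's likelihood ratio test, which called 1478 of 13159 genes, called 12 of 22 immediate early, 12 of 13 mitochondrial genome, 5 of 12 opioid and tachykinin, 4 of 9 heat shock, 7 of 26 synaptic and 2 of 10 pair bonding genes. Genes of a list are measured in the same libraries, so the counts describe the list and carry no test.

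Immediate early genes, which neurons transcribe soon after being activated, had 15 of 22 members at an unadjusted p under 0.05 (68.2%) and a median correlation of 0.425 between female and male. Nr4a1 had 50.3, 90.4 and 154 CPM in females and 34.8, 72.4 and 207 in males over all nuclei, with couple 5 the highest of both sexes (edgeR adjusted p = 0.0999). By class the count was 16 of 22 in glutamate neuron-like, 12 of 18 in D2, 11 of 18 in D1 and 8 of 17 in eccentric medium spiny neuron-like nuclei, where all genes gave 11.8%, 12.3%, 10.7% and 14%. Called members were Fos and Nr4a3 in D2 medium spiny neuron-like nuclei (edgeR adjusted p = 0.0443 and 0.049) and Nr4a1 in glutamate and eccentric medium spiny neuron-like nuclei. Fos ran from 24.8 to 137 CPM in females and from 21.7 to 205 in males, and both highest values belonged to couple 2, whose male library stood apart. Without couple 2 neither Fos nor Nr4a3 was called (edgeR adjusted p = 0.154 and 0.0909). The Nr4a1 calls in glutamate and eccentric medium spiny neuron-like nuclei were kept without couple 2 (edgeR adjusted p = 0.0298 and 0.0433). They were lost without couple 1 (0.115 and 0.111), with the mitochondrial share in the model (0.0603 each) and beyond blocks of library numbers (0.0609 and 0.0538).

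A cluster led by these genes held 7.78%, 13.4% and 24.9% (lowest, median, highest) of the D2 medium spiny neuron-like nuclei of females and 8.03%, 10.2% and 38.9% of those of males, with couple 2 highest in both. The share differed by 5.28 points within couples and 7.55 in other pairs (p = 0.0771, permutation test). Over the 11 couples the female and male shares had a Pearson r of 0.599 (permutation p = 0.0422, adjusted over 2 classes 0.0844) and a Spearman rho of 0.409 (permutation p = 0.216, adjusted 0.216), and r was 0.384 without couples 2 and 3. Neither passed after adjustment, and the Pearson value fell without those couples. For D1 medium spiny neuron-like nuclei the difference was 5.58 against 7.19 points (p = 0.228, permutation test). Pearson r was 0.493 (permutation p = 0.122, adjusted 0.122) and Spearman rho 0.445 (permutation p = 0.172, adjusted 0.216). Without couples 3 and 11 this r was 0.739. In each class the 2 couples left out were those whose females lay farthest from the female median. Couple 2 therefore stayed in the D1 value, with the highest male share, 32.9% against a male median of 10.3%. The D1 value without couple 2 was not computed.

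The 13 genes of the mitochondrial genome had the highest share of the lists, 11 of 13 at an unadjusted p under 0.05 (84.6%), and a median correlation of 0.475. ND5 had 275, 355 and 648 CPM in females and 206, 361 and 603 in males over all nuclei, and couple 9 was the highest of both sexes (edgeR adjusted p = 0.143). CYTB, a subunit of complex III, was high in both animals of couples 6 (745 and 673 CPM) and 9 (630 and 751 CPM; edgeR adjusted p = 0.159). Within classes ND4L, ND5 and CYTB were called in astrocyte-like nuclei, ND5 in eccentric medium spiny neuron-like nuclei, and ND4L in oligodendrocyte precursor-like and other GABA neuron-like nuclei. These transcripts are made outside the nucleus. The mitochondrial share of nuclei was 0.716% and 0.644% in couple 6 and 0.704% and 0.588% in couple 9, against 0.424% and 0.459% in couple 3. With that share in the model none of these 6 calls was kept (edgeR adjusted p 0.267 to 0.744). The share is the sum of the counts of these same 13 genes, so that model takes out their own level by construction and is no check of their calls. Over all genes 10 gene-class tests were called with it, 9 of them among the 147.

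Opioid and tachykinin genes had 7 of 12 members at an unadjusted p under 0.05 (58.3%) and a median correlation of 0.418. Tac2, the precursor of neurokinin B, had 38.8, 113 and 138 CPM in females and 40.8, 80.3 and 156 in males, and couples 1, 2 and 5 were at 56.8 CPM or below in both sexes (edgeR adjusted p = 0.0999). Pnoc, the precursor of nociceptin, was also low in couples 1 and 5 (5.10 to 7.69 CPM; edgeR adjusted p = 0.174). Tac2 was among the leading genes of the eccentric medium spiny neuron-like cluster and of an unnamed one. Pnoc was among those of the larger somatostatin interneuron-like cluster. The part of class shares in their levels over all nuclei was not tested. In eccentric medium spiny neuron-like nuclei 6 of 7 tested members and in glutamate neuron-like nuclei 1 of 9 had an unadjusted p under 0.05, where all genes gave 14% and 11.8%.

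The lists of pair bonding peptides and receptors and of dopamine signalling genes stood near the 15.8% of all genes. Of the list of pair bonding peptides and receptors 10 of 17 genes in the files passed the filter on low counts and 2 had an unadjusted p under 0.05 (20%). They were Crhbp, which binds corticotropin-releasing factor (10.0 to 37.1 CPM in females, 17.5 to 40.1 in males, couple 11 highest in both; edgeR adjusted p = 0.193), and Crhr2, a receptor of that family (edgeR adjusted p = 0.193). Crhbp was also among the leading genes of both somatostatin interneuron-like clusters. The part of that class's share in its level was not tested. Dopamine signalling genes had 3 of 16 (18.8%), the lowest p in Rgs2 and Rgs9, regulators of G protein signalling (edgeR adjusted p = 0.211 and 0.229).

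Of genes that follow daily rhythm or stress hormones, clock genes had 4 of 14 (28.6%) and glucocorticoid receptors and responsive genes 4 of 11 (36.4%). Clock, a core transcription factor of the daily rhythm, was highest in the male of couple 1 (85 CPM) and the female of couple 9 (72.7 CPM) and lowest in both animals of couple 8 (48.9 and 44.3 CPM; edgeR adjusted p = 0.19). Fkbp5, a co-chaperone induced by glucocorticoids, was lowest in both animals of couple 2 (34.9 and 29.4 CPM) against medians of 57.6 and 53.2 (edgeR adjusted p = 0.159). Pdk4, a kinase that holds back glucose oxidation, was the list's called member, in astrocyte-like nuclei (edgeR adjusted p = 0.0479, but 0.255 without couple 1), at 233 and 376 CPM in couple 1 and 60.4 and 106 in couple 3. Couple 2 does not enter this class.

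Heat shock and chaperone genes had 4 of 9 (44.4%). Hspa5 ran from 492 to 1080 CPM in females and from 471 to 1170 in males over all nuclei with couple 9 highest in both (edgeR adjusted p = 0.0967), and it was called in astrocyte-like, eccentric medium spiny neuron-like and glutamate neuron-like nuclei. Without couple 2 the calls in eccentric medium spiny neuron-like (edgeR adjusted p = 0.106) and glutamate neuron-like nuclei (0.0616) were lost, and without couple 1 that in astrocyte-like nuclei (0.169). Hspa8, a chaperone of the cytosol, was at 2430 and 2670 CPM in couple 9 against medians of 1480 and 1310 (edgeR adjusted p = 0.113). It was called in eccentric medium spiny neuron-like nuclei (edgeR adjusted p = 0.0281), but not without couple 9 (0.112) or with the mitochondrial share in the model (0.174). Synaptic genes had 8 of 26 (30.8%), cholesterol synthesis genes 4 of 18 (22.2%), X-linked genes with Y copies 2 of 5 (40%), and major histocompatibility and interferon genes 0 of 6.

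**Figure D5:**
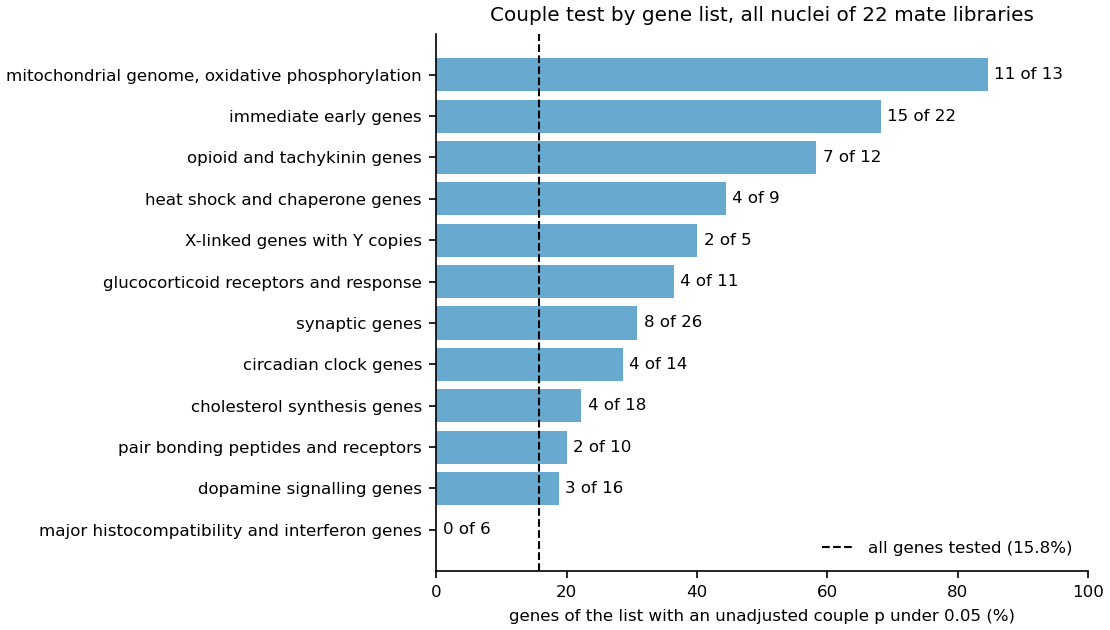
Percent of the tested genes of each of 12 lists with an unadjusted couple p under 0.05 over all nuclei (bars, with counts), and the same percent over all genes tested as a dashed line at 15.8%. The mitochondrial genome (11 of 13), immediate early (15 of 22) and opioid and tachykinin genes (7 of 12) have the longest bars, and pair bonding (2 of 10) and dopamine signalling genes (3 of 16) lie near the line.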

How the data were processed

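Single-nucleus RNA was measured in 40 prairie vole nucleus accumbens samples, of which 22 mate libraries entered the main comparisons. The deposited matrices hold unnormalized UMI counts for 19130 genes, of which 3809 have no symbol of their own; the authors used Cell Ranger 3.1.0, per the submitters' processing notes. The genome build, the annotation and the barcode filter are not given in the sources used here. Groups came from the labels and couples from the library numbers. The couples, cell classes, marker lists, gene lists and tests were chosen with earlier results of these data known.

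A minimum of 500 UMIs per barcode removed 6375 mate barcodes, all of them from the 12519 of male mate 2. A maximum of 5% mitochondrial UMIs per barcode removed 1015 mate barcodes. Doublets were scored against simulated doublets at an assumed rate of 0.8% per 1000 barcodes, and 4.69% of the mate nuclei were removed. Nuclei of all 40 libraries were clustered together (scanpy 1.11.5, 2000 variable genes, 30 components, 15 neighbours, Leiden resolution 1, no correction between libraries) into 27 clusters, which were named X-like from 20 marker lists; scoring needed at least 3 markers and was set after clusters were seen. Counts were summed per animal and class, with at least 20 nuclei in an animal and 8 whole couples. Drd1 is listed as Drd1a.

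Similarity used log2 CPM (TMM factors, prior count 2, edgeR's filter on low counts) minus the mean of the sex. Couples were compared with other female-male pairs by two-sided permutation of males (100000 draws, or all within blocks of 10 library numbers). Genes were tested with edgeR 4.0.16 (R 4.3.3), comparing models with sex and couple and with sex alone, and p-values were adjusted over all genes or over all gene-class tests. An SD within couples is that of the deviations of its 2 animals. Called genes were named by lowest p: up to 20 over all nuclei, 3 per class (1 where none was called), and 4 called members per list, or else the 2 lowest; up to 4 identifiers without a symbol. Similarity and gene tests were checked on simulated data. Alternatives were other scaling, prior counts, filters, correlation, thinning, kept doublets, covariates, DESeq2 1.42.0 and each couple left out. Permutation p-values compare the observed couples with reassigned males, or with reassigned couple types for mates against peers. The edgeR p-values set couple terms against the spread within couples. Both concern these animals only.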

Additional observations from a re-analysis of the deposited data

Results flagged for a closer look

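Of 26 gene and sex groups of 4 to 10 animals tested for a single animal far from the rest, 4 were marked. The genes had been picked by the couple test in the same animals, so no chance rate applies to this count. In oligodendrocyte precursor-like nuclei ENSMOCG00000000471 was at 1030 CPM in the female of couple 11, against 585 in the next female, and the male of that couple was also the highest of the males at 485. In vascular nuclei Hspb1 was at 2120 CPM in the male of couple 9, against 699 in the next male, and the female of that couple had 770. In astrocyte-like nuclei Hspa5 was at 1230 CPM in the male of couple 9, against 840 in the next male, and the female of that couple was the highest female at 1040. In the same nuclei ND4L was at 931 CPM in the male of couple 6, against 414 in the next male, while the female of that couple, at 509, was below those of couples 9 and 11. What sets these animals apart was not tested.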

How the results depend on the processing

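Couples, inferred from library numbers, are the pairing that is tested and the replicate block of each gene model, so every value is a paired one under that inference. The excess over all nuclei stayed above 0 in 24 settings (0.0279 to 0.151) and called in 10. It was not called without a filter on low counts (0.0549), with a prior count of 0.5 (0.0933), on the 2000 most variable genes (0.0507), after regression on class shares (0.0581), on these and median UMIs (0.0947), on class shares without couple 2 (0.0600) or on the mitochondrial share (0.0654). With slopes within each sex it was 0.0349 for class shares, 0.0922 for the mitochondrial share and 0.0797 for median UMIs. The mean over classes was not called after regression on class shares (0.0279, or 0.0384 within sexes), on the mitochondrial share within sexes (0.0413), or with exchange within blocks (0.0722). Each couple left out in turn gave 0.0807 to 0.128. The count of called classes, 4, became 2 without a filter, 0 within blocks, 0 in each regression on class shares or the mitochondrial share, and 0 to 6 with a couple left out. Reversed class values were -0.00920 (vascular, no filter), -0.00186 (microglia-like, within blocks), -0.0130 (oligodendrocyte precursor-like, class shares, with and without couple 2), -0.00166 (other GABA neuron-like, class shares without couple 2), -0.0141 (oligodendrocyte-like, mitochondrial share) and -0.00452 (vascular, median UMIs within sexes). With a couple left out microglia-like nuclei gave -0.0198 to 0.0990 and vascular nuclei -0.00788 to 0.0480. Mates minus peers was -0.0154 with Spearman correlation and -0.0278 to 0.0695 with a couple left out. Called genes over all nuclei numbered 9 without a filter, 0 beyond blocks of library numbers (2024 at an unadjusted edgeR p under 0.05), 0 with class shares, 0 with the mitochondrial share, 1478 in DESeq2's likelihood ratio test and 0 to 12 with a couple left out. Called gene-class tests numbered 9 beyond blocks, 20 with class shares, 10 with the mitochondrial share and 1612 in DESeq2. With a couple left out they numbered 3 to 210. Of the 147 main calls, 126 were among those of DESeq2. Without a filter 4089 were called, out of more tests than the 71354 of the main setting, so this count cannot be read against 147. The causes of these changes were not tested, beyond the fewer animals of a left-out couple. The regressions on the mitochondrial share, on class shares with median UMIs, with slopes within sexes, within classes and without couple 2, both gene models with the mitochondrial share, the class gene model with class shares, thinning and gene exclusion within classes, and the exchange within blocks for the mean over classes, were added after seeing the data. With 11 couples and 10 residual degrees of freedom per gene, couple terms of single genes are estimated with little precision, and low-count genes least of all.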

Other observations

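Genes called in several classes were listed after their values were seen. Saraf was called in 4 classes, the astrocyte-like, eccentric medium spiny neuron-like, oligodendrocyte precursor-like and other GABA neuron-like ones, and had an unadjusted p under 0.05 in 9 of 11. Atp1b1, a subunit of the sodium pump, Atp6v0b, a subunit of the vesicle proton pump, Grina and Serinc3, a membrane protein, were called together in the D1, D2 and eccentric medium spiny neuron-like classes. For Atp1b1 in D1 medium spiny neuron-like nuclei couple 1 had 1410 and 1560 CPM and couple 11 had 2860 and 3030. For Atp6v0b in the same nuclei couple 1 had 160 and 185 CPM and couple 10 had 360 and 389. Couple 1 was the lowest of both sexes for both genes, and each was called in neurons that share their library, so these calls are not independent. Without couple 2, whose male library stood apart, all 3 calls of Atp1b1 (edgeR adjusted p 0.0627 to 0.0946), all 3 of Serinc3 (0.077 to 0.0946) and the D1 calls of Atp6v0b (0.0967) and Grina (0.0866) were lost. That of Saraf in oligodendrocyte precursor-like nuclei was lost too (0.0631). Couple 2 does not enter that class, so this change comes only from the adjustment over all gene-class tests. Without couple 1 every call of these 5 genes was lost (edgeR adjusted p 0.122 to 0.366).

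Sparcl1, a secreted protein of glia, was called in the D1, D2 and glutamate neuron-like classes. Its level was 258 to 619 CPM in the neuron classes, 5380 in oligodendrocyte precursor-like, 4470 in astrocyte-like, 2030 in vascular, 210 in microglia-like and 124 in oligodendrocyte-like nuclei. The astrocyte transporter gene Slc1a2 was at 13900 CPM in astrocyte-like nuclei and at 183, 221 and 803 in the D1, D2 and glutamate neuron-like classes. In D1 medium spiny neuron-like nuclei couple 1 had 67.2 and 131 CPM of Sparcl1, and couple 9 had 434 and 735. All 3 calls of Sparcl1 were lost without couple 1 (edgeR adjusted p 0.175 to 0.255), without couple 2 (0.0749, 0.0608 and 0.0631 in D1, D2 and glutamate neuron-like nuclei) and with the mitochondrial share in the model (0.253, 0.219 and 0.214). The part of free glial RNA in this result was not tested.

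In the 9 peer couples the called gene was Shank1, a scaffold of excitatory synapses (edgeR adjusted p = 0.0213; SD between couples 0.45, within 0.14, log2). In mates its SD was 0.41 between couples and 0.28 within (edgeR adjusted p = 0.136). None of the 4 genes called in mates over all nuclei was called in peers: the edgeR adjusted p was 0.24 for P4hb, 0.248 for Degs1, 0.379 for ENSMOCG00000019332 and 0.708 for ENSMOCG00000005617. Before adjustment the edgeR p in peers was 0.0014 for P4hb and 0.0092 for Degs1. It was 0.0987 for ENSMOCG00000019332 and 0.552 for ENSMOCG00000005617. The peer SD between couples was 0.22 for P4hb and 0.2 for Degs1, and within couples 0.12 and 0.14 (log2). For ENSMOCG00000019332 it was 0.24 between and 0.28 within, and for ENSMOCG00000005617 0.19 and 0.33. The difference between mates and peers was not tested gene by gene.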
